A study of Mus musculus with 20 samples.

Results

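The 9 genes described here encode the ligands and receptors of 2 growth factor systems of blood vessels, and were taken by symbol from the 16003 genes of a single-cell count table of the mouse spinal cord. They comprise the VEGF ligands Vegfa, Vegfb and Pgf, the VEGF receptors Kdr and Flt1 with the co-receptor Nrp1, and the angiopoietin system with the ligand Angpt2 and the receptors Tek and Tie1. All 9 symbols were found. The rule that defines them uses no measured value.

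The cells came from female C57BL/6J mice, 8-10 weeks of age, that were given Vehicle chow or chow with 1200 ppm PLX5622, an inhibitor of the Csf1 receptor that depletes microglia. The diet began 2 weeks before surgery and lasted to the endpoint. Sham mice had a laminectomy alone, and injured mice had a contusion of the cord at T9 (SCI) and were studied at 7 or 28 days post-injury (dpi). The 6 single-cell libraries were thus sham, 7 dpi and 28 dpi under each diet, each made from the pooled cords of several mice. The sham library of a diet was the reference for both times, so that any error in it enters both ratios. A piece of cord 1 cm long that had not been perfused, so that blood cells remained, was dissociated and freed of myelin and dead cells.

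VEGF-A is released by cells that sense low oxygen or reshape tissue, and acts on endothelial cells mainly through VEGFR2, the product of Kdr. VEGFR1, the product of Flt1, binds VEGF-A, VEGF-B and placental growth factor with little signaling of its own in endothelium, and also exists as a soluble form that traps the ligand. In the angiopoietin system the receptor Tie2, the product of Tek, keeps vessels quiescent when bound by angiopoietin 1, while angiopoietin 2 from endothelial cells loosens them, and Tie1 modulates Tie2. In the central nervous system both systems shape the blood-spinal cord barrier, and astrocytes are a known source of VEGF-A after injury.

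The start of the receptor genes is shown because endothelial genes are commonly controlled by ETS factors, whose sites often hold GGAAG. Other forms of the ETS site were not searched. Each line gives the 250 bases before the RefSeq start of a gene on GRCm38.p6, 5′ to 3′ on the strand of the gene. Capitals mark GGAAG on either strand, which reads CTTCC where the match is on the other strand.
Kdr, chr5:75978456-75978705, minus strand: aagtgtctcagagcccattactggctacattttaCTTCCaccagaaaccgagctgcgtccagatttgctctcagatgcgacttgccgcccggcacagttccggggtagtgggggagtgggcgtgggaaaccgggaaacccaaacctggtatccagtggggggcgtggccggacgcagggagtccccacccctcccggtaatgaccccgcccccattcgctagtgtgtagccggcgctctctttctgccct
Flt1, chr5:147726012-147726261, minus strand: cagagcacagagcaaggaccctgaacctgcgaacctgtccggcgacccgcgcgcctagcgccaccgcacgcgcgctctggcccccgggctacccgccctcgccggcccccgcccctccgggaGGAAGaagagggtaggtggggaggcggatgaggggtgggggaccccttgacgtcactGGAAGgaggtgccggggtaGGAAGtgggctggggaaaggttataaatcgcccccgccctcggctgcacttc
Tek, chr4:94739039-94739288, plus strand: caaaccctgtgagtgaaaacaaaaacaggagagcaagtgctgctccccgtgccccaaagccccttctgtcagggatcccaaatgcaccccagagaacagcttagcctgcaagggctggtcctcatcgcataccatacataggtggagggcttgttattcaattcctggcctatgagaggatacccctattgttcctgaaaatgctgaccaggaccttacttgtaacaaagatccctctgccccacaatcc
Tie1, chr4:118489850-118490099, minus strand: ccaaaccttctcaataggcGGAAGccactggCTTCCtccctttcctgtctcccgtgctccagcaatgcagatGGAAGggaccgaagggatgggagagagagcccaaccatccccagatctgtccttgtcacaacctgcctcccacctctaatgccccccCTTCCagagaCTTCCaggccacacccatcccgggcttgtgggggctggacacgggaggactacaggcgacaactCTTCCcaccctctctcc
GGAAG was found 6 times before Tie1, 3 times before Flt1, 1 time before Kdr and not at all before Tek, which says nothing of other forms of the site. The GENCODE span of Tie1 reaches into its RefSeq window, so that the annotations place its start differently, and the matches at 178, 91, 81 and 17 bases before the RefSeq start lie within that span. Of all 32851 such windows, 64.1% held at least 1 match, with a median of 1. Nrp1 had 3 matches, each of the 2 windows of Vegfa had 1, and Vegfb and both windows of Pgf had none. A window was found for 8 of the 9 members, and Angpt2 had none. The match of so short a stretch is a description of these letters and not evidence of a bound site.

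On GRCm38, Kdr spans 75932827 to 75978458 and Flt1 147561604 to 147726011, both on the minus strand of chromosome 5. Tek lies at 94739289 to 94874976 on the plus strand of chromosome 4, and Tie1 at 118471191 to 118490061 on the minus strand. Vegfa lies on chromosome 17 (46016993 to 46032369, minus strand), Vegfb on chromosome 19 (6982473 to 6987651, minus strand) and Pgf on chromosome 12 (85166635 to 85177790, minus strand). Nrp1 (128358604 to 128503363, plus strand) and Angpt2 (18690263 to 18741562, minus strand) are both on chromosome 8. All are protein-coding genes. The libraries read the 3′ end of transcripts, so that soluble and full-length Flt1, or the spliced forms of Vegfa, were counted together or in part, and levels are not compared between genes.

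The table held 21016 cells in 14 clusters, with 492 to 9846 cells and 2606149 to 35694246 UMIs, the counted captured transcripts, per library. Clusters carried numbers, and are named here from markers, so that "astrocytes" below stands for an astrocyte-like cluster and likewise for the others. The 1075 endothelial cells had 8 of 8 markers at their highest level, the 974 astrocytes 7 of 7, the 6791 monocyte-derived macrophages (MDMs) 5 of 6 and the 7018 microglia 6 of 7. The pericyte and fibroblast cluster was mixed and led by fibroblast genes, and the leptomeningeal cluster had 3 of 6. The level of a gene is its share of all UMIs of a cluster in a library, scaled to counts per 1e6 UMIs (CPM), with the exact Poisson 95% interval in brackets. Ratios between libraries are on the log2 scale of CPM, with a conditional binomial 95% interval in brackets. As each condition was 1 library, no test between conditions was possible. The intervals cover counting error and say nothing of how mice vary. A gene is called higher or lower where the ratio was at least 2-fold and the interval excluded 0, provided the pair of libraries held 20 or more of its UMIs, and the share of all tested genes so called is given beside the calls of members and once for each comparison of the pathway genes. Mean levels of a cluster are over the libraries that held at least 20 of its cells.

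The members divided by cell type. Endothelial cells held 95.9% of all 832 Tie1 UMIs, 94.0% of 1352 Tek UMIs, 75.2% of 983 Kdr UMIs and 72.9% of 7747 Flt1 UMIs. Astrocytes held 74.5% of 1802 Vegfa UMIs, and endothelial cells only 0.50%. The clusters were built from all genes of these cells, including the members, so these shares describe the clusters and were not tested. They also follow the number of cells captured, which was largest for microglia and MDMs.

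**Figure D1:**
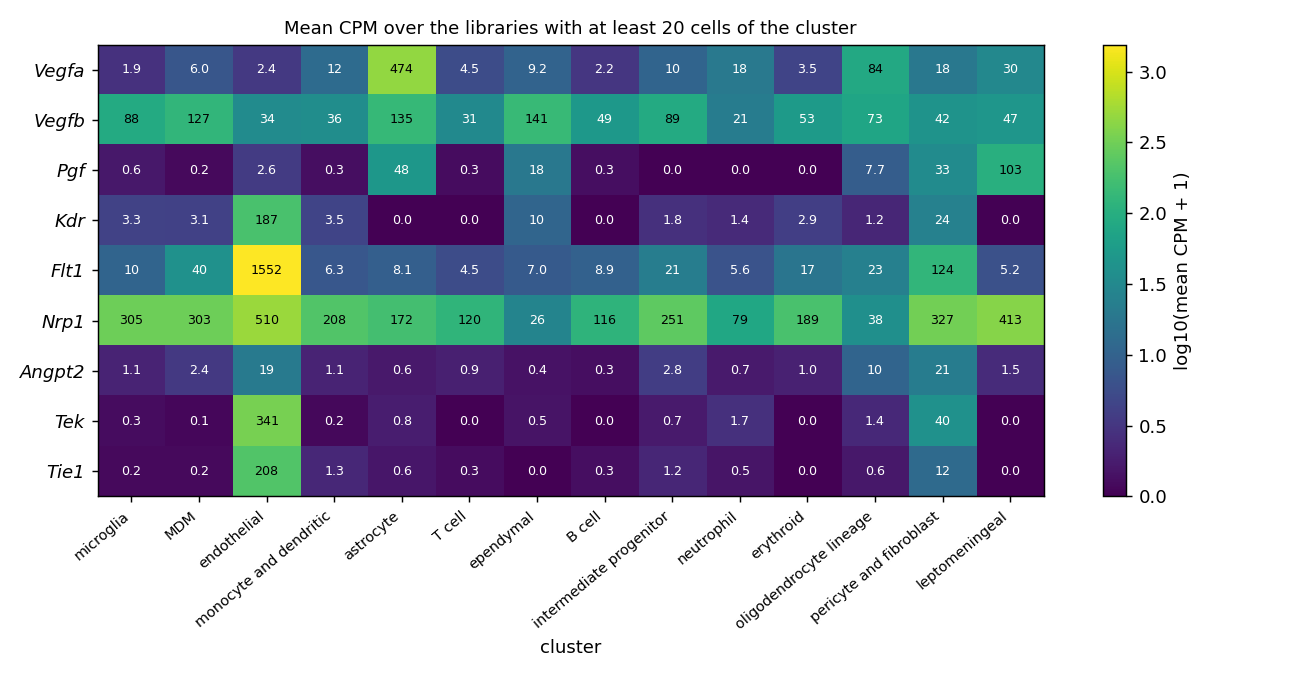
Mean CPM, over libraries with at least 20 cells of the cluster, of each member (rows) in each of the 14 clusters (columns), coloured by log10(mean CPM + 1) and printed in the cell. The receptors Kdr, Flt1, Tek and Tie1 were highest in the endothelial cluster, Vegfa in the astrocyte cluster and Pgf in the leptomeningeal cluster, whereas Nrp1 and Vegfb were spread over most clusters.

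Among the ligands, Vegfa had a mean of 474 CPM in astrocytes, and the next cluster, the oligodendrocyte lineage, had 84.4 CPM. Leptomeningeal cells had 29.6 CPM and neutrophils 18.2 CPM. Vegfb, which binds Flt1 but not Kdr, had no such single source. It was at 141 CPM in ependymal cells, 135 CPM in astrocytes and 127 CPM in MDMs, levels that lay closer to each other than the libraries of 1 cluster did. Because MDMs were so many they held 57.1% of Vegfb UMIs, and microglia 20.5%. Pgf, which encodes placental growth factor, was rarely captured, with 309 UMIs in all. Leptomeningeal cells held 36.2% of these, astrocytes 30.1% and ependymal cells 18.4%, at mean levels of 103, 47.7 and 17.9 CPM.

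Among the VEGF receptors, Flt1 averaged 1552 CPM and Kdr 187 CPM in endothelial cells. The next cluster for both was the mixed pericyte and fibroblast cluster, with 124 and 24.0 CPM. In sham Vehicle cells of that cluster Flt1 was at 0 UMIs in 41 cells. Flt1 was also present in MDMs, which held 20.0% of its UMIs, and Kdr in MDMs with 11.5% and microglia with 6.41%. Nrp1, a co-receptor for VEGF-A that also serves semaphorins, was present far outside the endothelium. It averaged 510.1 CPM in endothelial cells, was next highest in leptomeningeal cells, was at 305 CPM in microglia and 303 CPM in MDMs, and was lowest in ependymal cells at 26.5 CPM. MDMs held 51.7% of its 24613 UMIs, microglia 23.9% and endothelial cells 8.01%.

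In the angiopoietin system, Tek averaged 341 CPM and Tie1 208 CPM in endothelial cells, and no other cluster reached 40 CPM of Tek or 12 CPM of Tie1. The next for both was the pericyte and fibroblast cluster. There Tek had 17 UMIs in the sham Vehicle library, where Kdr, Flt1 and Tie1 had none. Angpt2 was the least captured member, with 207 UMIs in all. Its mean was 20.9 CPM in the pericyte and fibroblast cluster and 19.1 CPM in endothelial cells. MDMs held 34.8% of its UMIs at only 2.39 CPM, and endothelial cells 33.8%.

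Across the 66 sums of a cluster and a library with at least 20 cells, the genes whose log2(CPM + 10) followed a member most closely were named by their Pearson correlation, as a description over sums that share libraries and depth. Robo4, an endothelial guidance receptor, was closest to both Tie1 (0.99) and Kdr (0.96). Emcn, an endothelial sialomucin, was closest to Tek (0.98), and the transporter gene Slco1a4, an endothelial marker used to name the cluster, to Flt1 (0.92). For Vegfa it was Tlcd1 (0.91), for Pgf Ppp1r3c (0.93), for Nrp1 Sepp1 (0.86), for Vegfb Oxct1 (0.82) and for Angpt2 the basement membrane gene Col4a2 (0.79). Between members the values were 0.96 for Tek and Tie1, 0.94 for Kdr and Tie1, and 0.88 for Kdr and Flt1, but -0.27 for Vegfa and Kdr.

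In endothelial cells the CPM of Kdr, Flt1, Nrp1, Tek and Tie1 was lower in every injured library than in the sham library of the same diet, by less than 2-fold except for Tie1 at 28 dpi under PLX5622, but many of these signs depended on the scaling. With TMM or DESeq2's size factors the sign flipped for Kdr at 7 dpi under Vehicle and for Tek and Tie1 at 7 dpi under PLX5622. Per UMI of the endothelial markers it flipped for Kdr, Nrp1 and Tie1 at 7 dpi and for Flt1 (0.09) and Nrp1 at 28 dpi under Vehicle, and for Tek at both times and Flt1 at 28 dpi under PLX5622. It held under every alternative run only for Flt1 at 7 dpi under both diets, Kdr at 28 dpi under Vehicle and at 7 dpi under PLX5622, Tek at both times under Vehicle and Tie1 at 28 dpi under both diets. The endothelial cells numbered 82, 351 and 420 in the sham, 7 dpi and 28 dpi Vehicle libraries and 76, 81 and 65 in the PLX5622 libraries. Flt1 was at 1909 CPM [1758, 2069] in sham, 1066 [1012, 1121] at 7 dpi and 1361 [1285, 1440] at 28 dpi under Vehicle. Under PLX5622 it was at 1915 CPM [1805, 2030.5], 1512 [1412, 1616] and 1548 [1392, 1717]. The sham libraries were thus alike and the 7 dpi Vehicle library was the lowest of the 6. Relative to sham, the log2 ratio was -0.84 [-0.98, -0.70] at 7 dpi and -0.49 [-0.63, -0.34] at 28 dpi under Vehicle, and -0.34 [-0.47, -0.21] and -0.31 [-0.48, -0.13] under PLX5622. PLX5622 over Vehicle gave 0.50 [0.38, 0.63] at 7 dpi, 0.19 [0.01, 0.36] at 28 dpi and 0.00 [-0.14, 0.15] in sham, the last at -0.03 with DESeq2's size factors.

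The main signaling receptor gene, Kdr, was at 217 CPM [168, 275], 189 [167, 213] and 124 [102, 149] in sham, 7 dpi and 28 dpi under Vehicle. Under PLX5622 the levels were 270.2 CPM [230, 316], 181 [147, 219] and 142 [97.7, 199]. Both diets had their lowest level at 28 dpi. The log2 ratio over sham at 28 dpi was -0.81 [-1.26, -0.35] under Vehicle and -0.93 [-1.52, -0.38] under PLX5622. The latter was 0.15 with cells thinned to 1000 UMIs, so that no direction can be given under PLX5622. At 7 dpi it was -0.20 [-0.59, 0.21] under Vehicle, and 0.01 with edgeR's TMM factors, so that no direction can be given. Between diets the interval of the log2 ratio held 0 in sham (0.32 [-0.10, 0.75]), at 7 dpi (-0.07 [-0.41, 0.27]) and at 28 dpi (0.20 [-0.41, 0.77]).

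Nrp1 was at 582 CPM [500, 674], 448 [414, 485] and 424 [382, 469] under Vehicle and at 625 [563, 693], 550.5 [491, 615] and 430.1 [350, 523] under PLX5622 in the same order. Its log2 ratio over sham at 28 dpi was -0.46 [-0.72, -0.20] under Vehicle and -0.54 [-0.87, -0.22] under PLX5622. The former was 0.12 per UMI of the endothelial markers and the latter 0.10 with cells thinned to 1000 UMIs, so that no direction can be given. The difference between diets at 28 dpi was 0.02 [-0.31, 0.34], and -0.10 with TMM.

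Tek, the Tie2 receptor gene, was at 463 CPM [390, 545], 284 [257, 313] and 276 [242, 313] under Vehicle, and at 360.3 [313, 412], 343 [297, 395] and 318 [249.9, 400] under PLX5622. The sham Vehicle library was the highest and the 3 PLX5622 libraries overlapped in their intervals. Relative to sham, the log2 ratio was -0.70 [-0.98, -0.42] at 7 dpi and -0.75 [-1.05, -0.44] at 28 dpi under Vehicle. Under PLX5622 it was -0.07 [-0.36, 0.22] and -0.18 [-0.58, 0.21], and the former was 0.03 with TMM. The sham PLX5622 library was itself below sham Vehicle, by -0.36 [-0.67, -0.04].

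Tie1, the partner receptor of Tie2, was at 220.0 CPM [171, 279], 178 [157, 202] and 123 [101, 148] under Vehicle and at 301 [258, 349], 278 [236, 325] and 146 [101, 204] under PLX5622. Both diets were lowest at 28 dpi, as for Kdr. The log2 ratio over sham at 28 dpi was -0.84 [-1.29, -0.38] under Vehicle and -1.04 [-1.62, -0.50] under PLX5622, where Tie1 fell past 2-fold, with 177 UMIs in sham and 34 at 28 dpi. That call lies at the 2-fold limit and was lost with endothelial marker UMIs as the total (-0.70) and in cells with few myeloid UMIs (-0.74). Between diets Tie1 was higher under PLX5622 at 7 dpi, by 0.64 [0.34, 0.93], and in sham, by 0.45 [0.04, 0.88], both below 2-fold.

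**Figure D2:**
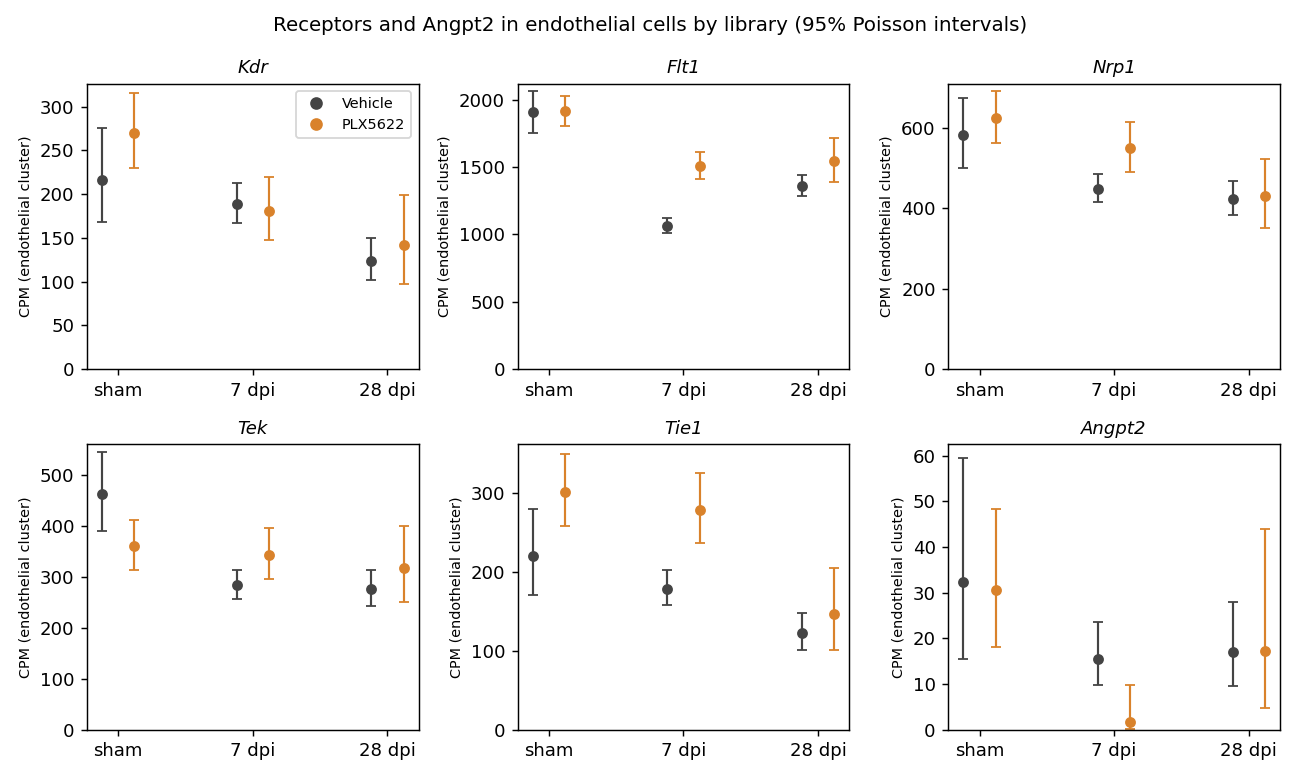
CPM (vertical axis, separate scale per panel) of Kdr, Flt1, Nrp1, Tek, Tie1 and Angpt2 in endothelial cells of the 6 libraries, Vehicle in grey and PLX5622 in orange, with exact Poisson 95% intervals. Flt1 and Tek were lowest in the injured Vehicle libraries, Kdr and Tie1 at 28 dpi within each diet, and Angpt2 at 7 dpi under PLX5622.

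The ligand Angpt2, which endothelial cells release, rested on few UMIs, with 10, 22 and 15 under Vehicle and 18, 1 and 4 under PLX5622. The levels were 32.4 CPM [15.5, 59.5], 15.5 [9.72, 23.5] and 16.9 [9.46, 27.9] under Vehicle. Under PLX5622 they were 30.6 [18.1, 48.3], 1.77 [0.04, 9.86] and 17.2 [4.69, 44.0]. The 1 UMI at 7 dpi under PLX5622 set the only low library, and Angpt2 there was lower than at 7 dpi under Vehicle by a log2 ratio of -3.13 [-8.50, -0.50]. In endothelial cells with fewer than 3 UMIs of a myeloid gene list it had 1 UMI in each of these libraries, for 2.43 CPM under Vehicle and 2.36 under PLX5622, so that the difference was not seen there. The intervals of its ratios over sham under Vehicle both held 0, at -1.06 [-2.20, 0.18] and -0.94 [-2.19, 0.38].

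Of the 7 members tested over sham under Vehicle, Vegfb alone was called higher in endothelial cells. It had 5 UMIs in sham, 74 at 7 dpi and 51 at 28 dpi under Vehicle, for 16.2 CPM [5.25, 37.7], 52.2 [41.0, 65.5] and 57.4 [42.8, 75.5]. Relative to sham, the log2 ratio was 1.69 [0.40, 3.35] at 7 dpi and 1.83 [0.51, 3.51] at 28 dpi. Under PLX5622 the levels were 11.9, 30.1 and 34.4 CPM with 7, 17 and 8 UMIs, and the interval at 7 dpi held 0 (1.34). Myeloid transcripts moved with it. The 12 genes of a myeloid list made up 0.166%, 0.964% and 1.18% of endothelial UMIs under Vehicle, all 12 higher at both times than in sham, and 0.0133%, 0.187% and 0.147% under PLX5622. In the 72, 152 and 210 Vehicle cells with fewer than 3 such UMIs, Vegfb was at 17.9 CPM [4.88, 45.8], 26.7 [13.3, 47.8] and 38.6 [19.9, 67.4], and was no longer called. The part of myeloid RNA in the rise was not tested further.

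In the same cells Flt1 and Tie1 under Vehicle were at higher levels after injury than in all endothelial cells, and still below sham. Flt1 was at 1925 CPM [1747, 2115], 1303 [1195, 1418] and 1620 [1481, 1768] under Vehicle, and Tie1 at 264 [201, 341], 235 [191, 287] and 177 [133, 230.1]. Tek under PLX5622 was at 365 [312, 423], 380.0 [324, 443] and 381 [292, 490] CPM there, with sham the lowest of overlapping intervals. The 8 endothelial markers, which hold no member, made up 2.38%, 1.58% and 1.59% of endothelial UMIs under Vehicle and 2.16%, 2.03% and 1.71% under PLX5622. Their summed share was thus lower after injury as well. Under PLX5622 the single markers differed, with Cldn5 at 7243, 5841 and 4391 CPM but Ly6c1 at 4563, 5521 and 4890 CPM. Pericyte markers ranged from 0.00873% in sham Vehicle to 0.286% at 28 dpi under PLX5622, and 4 of the 7 were at 0 in sham Vehicle. Their part in these levels was not tested.

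Counted over the members, 1 of 7 tested was called at 7 dpi and 1 of 7 at 28 dpi over sham under Vehicle, in both cases Vegfb, beside 10.6% and 10.2% of all genes. Under PLX5622 it was 0 of 6 at 7 dpi (6.41% of all genes) and 1 of 6 at 28 dpi, Tie1 (5.8%). PLX5622 over Vehicle gave 0 of 6 in sham (5.3%), 1 of 7 at 7 dpi, Angpt2 (8.52%), and 0 of 6 at 28 dpi (6.88%). These counts are near the background and are no result about the members. The median log2 ratio of the members over sham was -0.38 and -0.75 under Vehicle and -0.15 and -0.69 under PLX5622 at 7 and 28 dpi. The median of all tested genes was -0.14, -0.15, -0.11 and -0.12 in the same comparisons. With TMM the medians of all genes under Vehicle were 0.07 and 0.03, so CPM shifted endothelial ratios over sham down by up to 0.21.

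Genes of the same pathways gave a mixed picture in endothelial cells. Of 4 tested ligands and receptors outside the members, Vegfc, the lymphatic growth factor, was lower at 7 dpi (-1.76 [-2.83, -0.65]) and at 28 dpi (-1.87 [-3.15, -0.62]) over sham under Vehicle, and at 7 dpi under PLX5622 (-1.20 [-2.43, -0.09]). It had 14, 19 and 11 UMIs under Vehicle and 24, 10 and 3 under PLX5622. Its receptor gene Flt4 was at 67.9, 75.5 and 45.1 CPM under Vehicle and was not called. None of 5 tested signal transduction genes was called in any comparison of endothelial cells with sham.

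Of the tip cell and VEGF-induced genes, 5 were tested at 7 dpi over sham under Vehicle, where 10.6% of all genes were called in either direction. The chemokine receptor gene Cxcr4 rose from 1 to 49 UMIs (3.42 [0.87, 8.75]), and Dll4, the Notch ligand of tip cells, fell by 1.14 on the log2 scale. The myeloid share given above, 0.166% of endothelial UMIs in sham and 0.964% at 7 dpi, moved with Cxcr4, and its part was not tested. At 28 dpi, with 10.2% of genes called, Dll4 (-1.17) and the peptide hormone gene Adm (-2.33) were lower. Of 8 quiescence and Notch genes at 7 dpi, the Notch target Hes1 (-1.54) and the flow-responsive factors Klf4 (-1.51) and Klf2 (-1.28) were lower, and Aplnr, the apelin receptor gene, was higher (1.48 [0.30, 2.97]). At 28 dpi, Hes1 alone of 7 was called (-1.61). The 8 endothelial markers were lower as well, at 2.38% of endothelial UMIs in sham and 1.58% at 7 dpi under Vehicle. Ratios of the list genes per marker UMI were not computed, and the part of this in their lower levels was not tested. None of 5 oxygen sensing genes was called at either time.

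Under PLX5622, the immediate early gene Nr4a1 (-2.06) was lower and Aplnr higher (1.81 [0.64, 3.16]) at 7 dpi over sham, beside 6.41% of genes, and none of the genes of these lists was called at 28 dpi. PLX5622 over Vehicle called no list gene in sham or at 28 dpi. At 7 dpi it called Plaur, the urokinase receptor gene, higher (2.03 [0.65, 3.50]), Hey1, a Notch target, higher (1.08 [0.53, 1.63]), and Cxcr4 lower (-2.29 [-4.22, -0.84]), beside 8.52%. Plaur had 13 UMIs under PLX5622 and 8 under Vehicle, and Cxcr4 4 and 49, where the myeloid share was 0.187% and 0.964%.

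Vegfa in astrocytes was lower after injury, far more under Vehicle than under PLX5622 in these libraries. The Vehicle libraries held 310, 69 and 245 astrocytes in sham, at 7 dpi and at 28 dpi, with 634, 8 and 88 Vegfa UMIs. The levels were 813 CPM [751, 879], 43.5 [18.8, 85.8] and 213 [170.4, 262]. In the PLX5622 libraries 204, 39 and 107 astrocytes had 484, 35 and 93 UMIs, for 826 CPM [754, 903], 333 [232, 464] and 614 [495, 752]. The sham levels of the diets overlapped, the injured levels did not.

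The log2 ratio of Vegfa over sham under Vehicle was -4.22 [-5.44, -3.24] at 7 dpi, an 18.7-fold lower level, where 17% of all tested genes were called lower. At 28 dpi it was -1.94 [-2.27, -1.61], beside 13.9% of genes. From 7 to 28 dpi the level rose by 2.29 [1.25, 3.54], beside 3.86%. Under PLX5622 it was -1.31 [-1.85, -0.81] at 7 dpi, beside 3.96%, and -0.43 [-0.76, -0.11] at 28 dpi, which is below 2-fold. PLX5622 over Vehicle was 0.02 [-0.15, 0.20] in sham, and -0.02 with TMM. It was 2.94 [1.80, 4.26] at 7 dpi, beside 15.6% of genes called higher, and 1.53 [1.09, 1.97] at 28 dpi, beside 18.1%.

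**Figure D3:**
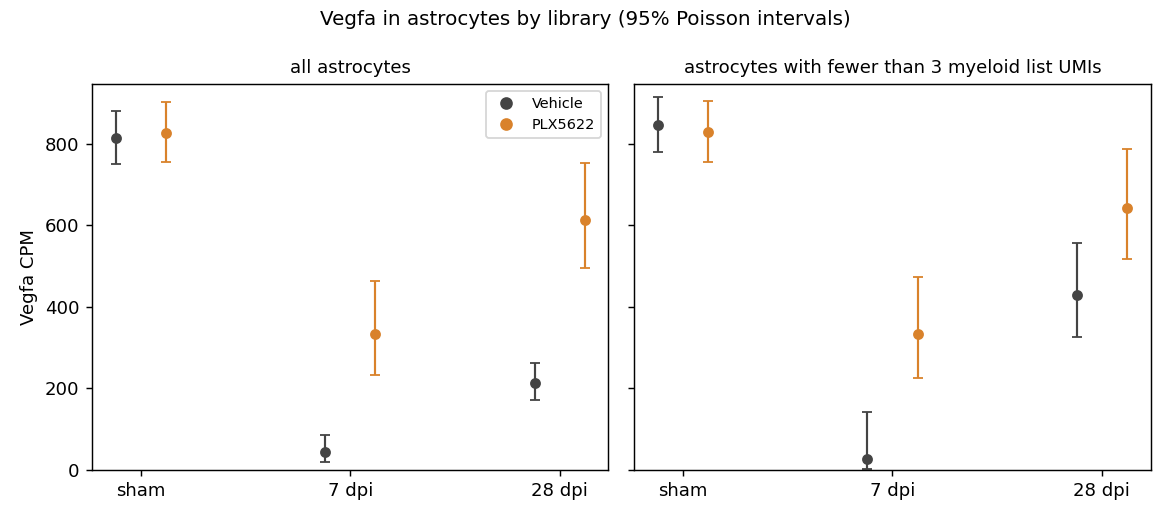
Vegfa in astrocytes of the 6 libraries, as CPM with exact Poisson 95% intervals, for all astrocytes (left) and for those with fewer than 3 UMIs of the myeloid list (right), Vehicle in grey and PLX5622 in orange. In all astrocytes, sham levels were 813 and 826 CPM under Vehicle and PLX5622, and the injured libraries were lower, with the lowest level, 43.5 CPM, at 7 dpi under Vehicle.

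Under Vehicle, cells with a Vegfa UMI followed the same order. With each cell thinned to 1000 UMIs, and shallower cells left out, Vegfa was seen in 56.4% of 225 sham astrocytes [49.7, 63.0], 3.92% of 51 at 7 dpi [0.48, 13.5] and 21.1% of 147 at 28 dpi [14.8, 28.6] under Vehicle. Under PLX5622 it was 57.5% of 127, 41.7% of 24 and 35.7% of 56. There the thinned share was lowest at 28 dpi, whereas the CPM was lowest at 7 dpi. Thinning left out 85, 18 and 98 Vehicle astrocytes and 77, 15 and 51 PLX5622 astrocytes, and the unthinned shares were 71.3%, 11.6%, 28.2%, 67.2%, 41.0% and 44.9%. T cells, which served as background, had 0 of 61, 0 of 121 and 1 of 241 thinned cells with a Vegfa UMI under Vehicle. Their median depth was 3669, 1510 and 1233 UMIs, against 2024, 2057 and 1149 in astrocytes.

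Myeloid transcripts moved with the level of Vegfa in this cluster. The myeloid list made up 0.183%, 2.28% and 2.17% of astrocyte UMIs under Vehicle and 0.0118%, 0.223% and 0.0983% under PLX5622, while the 7 astrocyte markers made up 2.96%, 2.02% and 1.92%, and 3.14%, 3.53% and 3.90%. Among cells with fewer than 3 myeloid UMIs, 295, 28 and 123 Vehicle astrocytes had 845 CPM [780.1, 914], 25.2 [0.64, 140.4] (from 1 UMI) and 430 [325, 557] of Vegfa. The PLX5622 levels were 828, 332 and 642 CPM. The 28 dpi ratio over sham under Vehicle was then -0.98, and that of PLX5622 over Vehicle 0.58, both below 2-fold. Per UMI of the astrocyte markers these ratios were -1.32 and 0.51. The 7 dpi ratio over sham under Vehicle stayed past 2-fold in both, at -5.07 from 1 UMI and at -3.67.

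The median of all tested genes in astrocytes was -0.37 at 7 dpi and -0.30 at 28 dpi over sham under Vehicle, and -0.22 and -0.06 with TMM. For PLX5622 over Vehicle at 28 dpi it was 0.31 by CPM and -0.20 with TMM, which put Vegfa there at 1.01. Of the other members in astrocytes, Vegfb was at 177, 103 and 121 CPM under Vehicle and 155, 114 and 139 CPM under PLX5622, and was not called. Nrp1 had 84, 51 and 90 UMIs under Vehicle, for 108 CPM [85.9, 133], 278 [207, 365] and 217 [175, 267]. It was higher than sham at 7 dpi, by 1.37 [0.83, 1.88], and at 28 dpi, by 1.01 [0.57, 1.46], where 10.2% and 10.3% of genes were called higher. In cells with few myeloid UMIs Nrp1 was at 96.6, 101 (4 UMIs) and 143 CPM, with ratios of 0.06 and 0.57. Under PLX5622 it was at 135, 171 and 125 CPM.

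Pgf in astrocytes had 30, 9 and 10 UMIs under Vehicle and 26, 4 and 14 under PLX5622. The levels were 38.5, 49.0 and 24.1 CPM under Vehicle and 44.4, 38.1 and 92.4 CPM under PLX5622, the last the highest of the 6 libraries. At 28 dpi under PLX5622, Pgf was higher than at 28 dpi under Vehicle by 1.94 [0.66, 3.27], beside 18.1% of genes called higher. It was higher than in sham PLX5622 by 1.06 [0.01, 2.05], where 6.72% of genes were called higher. Both calls rest on 14 UMIs.

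Of 6 tested oxygen sensing genes, which control Vegfa transcription, none was called in astrocytes at 7 or 28 dpi over sham under Vehicle. Hif1a, the oxygen-regulated subunit of the hypoxia-inducible factor, was at 269, 234 and 261 CPM under Vehicle and 212, 152 and 310.1 CPM under PLX5622, and Epas1, its paralog, at 110.3, 141 and 72.4 CPM under Vehicle. Hif3a, an inhibitory paralog, was higher at 28 dpi under PLX5622 than in sham PLX5622 (1.70 [0.65, 2.74]) and than at 28 dpi under Vehicle (1.64 [0.51, 2.79]). Of 5 tested quiescence and Notch genes, Hes1 and Hey1 were lower over sham under Vehicle. Their ratios were -3.07 and -1.88 at 7 dpi, and -3.08 and -1.94 at 28 dpi. Both were higher under PLX5622 than under Vehicle at 28 dpi (2.74 and 1.75). In that comparison Klf2 had 0 UMIs against 22, and was 2.68-fold lower with the 0 set to a floor of 3 counts. Of 5 signal transduction genes, the kinase gene Mapk3 was higher under Vehicle at 7 dpi (2.16) and 28 dpi (2.02), and Ptk2, which encodes focal adhesion kinase, was lower at 28 dpi (-1.17). Apln, the apelin ligand gene, was lower at 7 dpi (-1.64) and 28 dpi (-1.37) under Vehicle. Angpt1, which encodes the ligand that activates Tie2, had 36, 4 and 3 UMIs under Vehicle and was lower at 28 dpi (-2.67 [-5.02, -1.01]). Over sham under Vehicle, 17% of all genes were called lower and 10.2% higher at 7 dpi, and 13.9% lower and 10.3% higher at 28 dpi. At 28 dpi 6.72% were called higher under PLX5622 than in its sham, and for PLX5622 over Vehicle 18.1% were called higher and 10.9% lower. The myeloid shares given above hold for these genes as well, and their part was not tested.

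The sources of Vegfa within a library shifted accordingly. Astrocytes held 89.7% of the Vegfa UMIs of the sham Vehicle library, 4.30% at 7 dpi and 43.8% at 28 dpi, and 96.0%, 43.2% and 75.6% under PLX5622. MDMs held 1.13%, 62.4% and 33.8% under Vehicle and 0%, 19.8% and 4.88% under PLX5622. In MDMs the intervals of the Vegfa level overlapped, at 5.64 CPM [2.44, 11.1], 5.84 [4.82, 7.00] and 4.90 [3.81, 6.22] under Vehicle, while the number of MDMs was 185, 3023 and 3313. Monocytes and dendritic cells reached 45.6 CPM [23.6, 79.7] (12 UMIs) at 7 dpi under PLX5622 and 9.64 CPM [5.97, 14.7] at 7 dpi under Vehicle. Over all cells of a library Vegfa was at 98.4, 5.21 and 7.24 CPM under Vehicle and 193, 18.6 and 33.3 CPM under PLX5622, where astrocytes numbered 310, 69 and 245, and 204, 39 and 107.

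**Figure D4:**
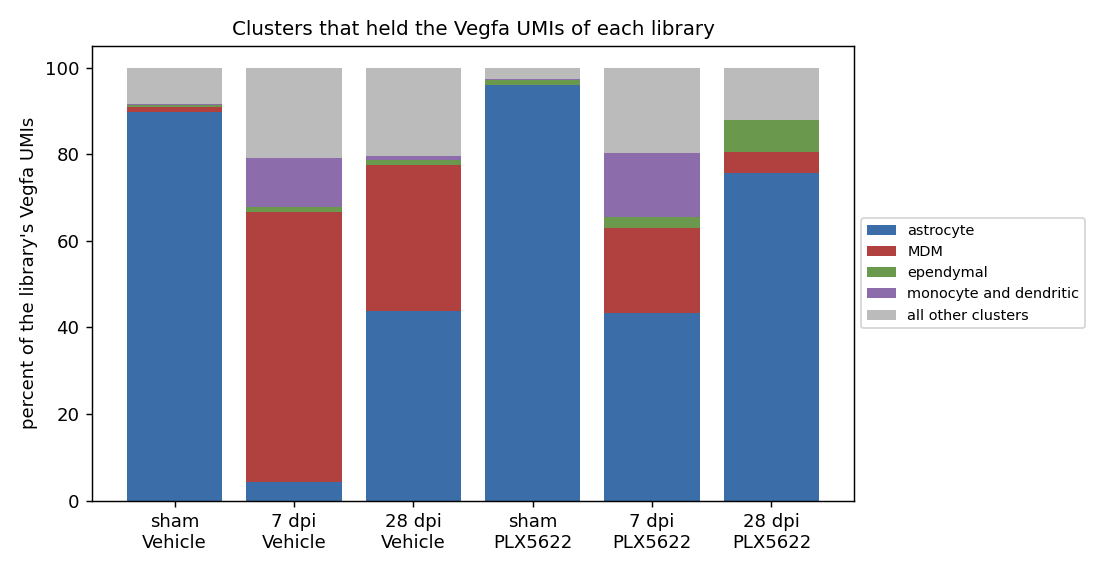
Percent of the Vegfa UMIs of each library (stacked bars) held by astrocytes, MDMs, ependymal cells, monocytes and dendritic cells, and all other clusters. Astrocytes held 89.7% in sham Vehicle and 96.0% in sham PLX5622, and at 7 dpi under Vehicle MDMs held 62.4%.

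Oligodendrocyte lineage cells had 22, 7 and 2 Vegfa UMIs in 22, 107 and 55 cells under Vehicle, for 282 CPM [177, 427], 21.4 [8.59, 44.0] and 19.0 [2.30, 68.7]. Under PLX5622, 3, 5 and 8 UMIs gave 190.2, 34.0 and 65.7 CPM, where the sham value rests on 3 UMIs in 4 cells. Relative to sham, the log2 ratio was -3.72 [-5.19, -2.45] at 7 dpi, beside 8.44% of genes called lower, and -3.89 [-7.02, -1.86] at 28 dpi, beside 6.13%. Astrocyte markers moved with it, at 0.492%, 0.0958% and 0.144% of the UMIs of this cluster under Vehicle and 3.11%, 0.137% and 0.241% under PLX5622. The myeloid list was at 0.0308%, 0.714% and 0.779% under Vehicle. In the 21, 51 and 28 Vehicle cells with fewer than 3 myeloid UMIs, Vegfa had 22, 5 and 2 UMIs. The levels there were 297 CPM [186, 450], 42.3 [13.7, 98.7] and 50.4 [6.10, 182]. The part of either list was not tested further. With cells thinned to 1000 UMIs the 7 dpi ratio was -0.48, below 2-fold.

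Flt1, which monocytes are known to use in chemotaxis, changed with time in MDMs. It had 48, 194 and 1207 UMIs in MDMs of the sham, 7 dpi and 28 dpi Vehicle libraries, for 33.8 CPM [25.0, 44.9], 9.76 [8.44, 11.2] and 87.1 [82.2, 92.1]. Under PLX5622 there were 1, 20 and 77 UMIs in 9, 100 and 161 cells, for 15.4 CPM [0.39, 85.8], 11.5 [7.00, 17.7] and 59.8 [47.2, 74.8]. In both diets the 7 dpi library was the lowest and the 28 dpi library the highest. Under Vehicle Flt1 fell at 7 dpi over sham by 1.79 on the log2 scale [-2.26, -1.31], where 12.6% of genes were called lower. The sham UMIs lay in 24 MDMs, with up to 10 in 1 cell, so an interval that treats UMIs as independent may be too narrow. Both libraries had few MDMs with a Flt1 UMI after thinning, as given below. At 28 dpi it was higher than sham by 1.36 [0.95, 1.81], beside 1.11% of genes, and higher than at 7 dpi by 3.16 [2.94, 3.38], or 8.92-fold, beside 5.1%. Under PLX5622 28 over 7 dpi gave 2.39 [1.66, 3.17], beside 3.55%. At 28 dpi PLX5622 was below Vehicle by -0.54 [-0.89, -0.21], less than 2-fold.

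The 8 endothelial markers made up 0.00183%, 0.00193% and 0.00152% of MDM UMIs under Vehicle. MDMs with a Flt1 UMI had 0.333, 0.124 and 0.0794 endothelial marker UMIs per cell in sham, at 7 dpi and at 28 dpi under Vehicle, and the others 0.112, 0.127 and 0.0581. At 7 dpi under PLX5622, the 11 MDMs with a Flt1 UMI had 1.27 and the others 0.315. Endothelial marker UMIs per cell were thus higher in MDMs with a Flt1 UMI in each of these libraries except 7 dpi Vehicle. These counts were not adjusted for the depth of the cells. The part of endothelial transcripts in the Flt1 levels was not tested further. In MDMs with no UMI of these markers, the ratio of 28 over 7 dpi was 3.14. At 28 dpi under Vehicle, 869 of 3313 MDMs (26.2% [24.7, 27.8]) had at least 1 Flt1 UMI, and none had more than 6. After thinning to 1000 UMIs the shares were 1.71%, 0.765% and 7.34% under Vehicle, and 0 of 99 at 7 dpi, which allows a share of up to 3.03%, and 5.33% at 28 dpi under PLX5622. T cells and B cells, taken as background, had 1.24% [0.26, 3.59] and 2.5% [0.69, 6.28] at 28 dpi under Vehicle. Their medians were 1233 and 932 UMIs per cell against 3875 in MDMs. The sham and 7 dpi Vehicle shares of MDMs lay within these intervals, but the background of those libraries is not given here. Kdr was at 4.94, 3.17 and 2.60 CPM in MDMs under Vehicle.

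In microglia Flt1 was lower than in MDMs, with its highest level at 28 dpi under Vehicle and its lowest in sham. It had 4, 29 and 233 UMIs in microglia under Vehicle, for 1.91 CPM [0.52, 4.89], 4.30 [2.88, 6.17] and 29.4 [25.7, 33.4]. Under PLX5622 there were 0, 4 and 5 UMIs. At 28 dpi under Vehicle Flt1 was higher than sham by 3.94 [2.57, 5.83], beside 3.73% of genes, and higher than 7 dpi by 2.77 [2.21, 3.38], beside 2.3%. In that library T cells and B cells, taken as background above, were at 24.0 and 34.0 CPM, so the microglial level was not above this background. The level at 28 dpi under PLX5622, 11.6 CPM [3.78, 27.1] in 126 cells, was lower than under Vehicle by -1.34 [-2.97, -0.09], beside 1.77%, and 0.071 with each cell weighted alike. No direction can be given for that last comparison.

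**Figure D5:**
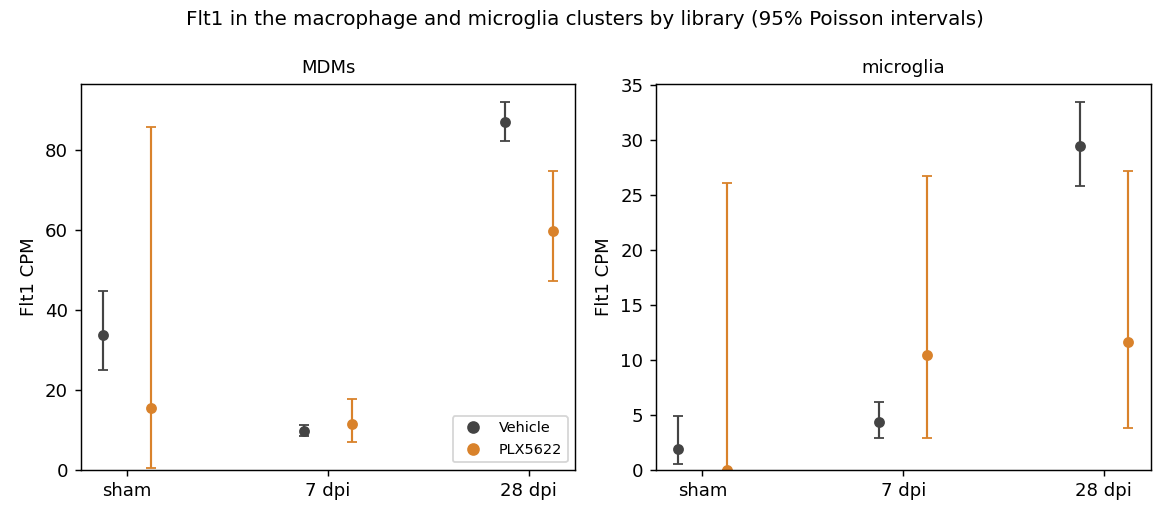
Flt1 in MDMs (left) and microglia (right) of the 6 libraries, as CPM with exact Poisson 95% intervals, Vehicle in grey and PLX5622 in orange. Both panels are highest at 28 dpi under Vehicle, at 87.1 and 29.4 CPM, where T cells were at 24.0 CPM and B cells at 34.0 CPM.

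Nrp1 and Vegfb were detected in these phagocytes in every library. Nrp1 was at 312 CPM [284, 343], 346 [338, 354] and 329 [320.0, 339] in MDMs under Vehicle and at 385 [249, 568], 287 [263, 314] and 241 [215, 269] under PLX5622, with PLX5622 below Vehicle at 28 dpi by -0.45 [-0.62, -0.29]. In microglia Nrp1 was at 276, 359 and 326 CPM under Vehicle and 198, 337 and 333 CPM under PLX5622. Vegfb was at 130, 146 and 114 CPM in MDMs under Vehicle and at 123, 116 and 127 CPM under PLX5622. In microglia Vegfb was at 89.7, 112 and 98.1 CPM under Vehicle and 107 and 102 CPM in the injured PLX5622 libraries. Only the 29 microglia left in sham PLX5622 were lower, at 21.2 CPM [4.37, 61.9] from 3 UMIs, which is -2.08 [-4.37, -0.51] against sham Vehicle, beside 1.78% of genes called lower.

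Nrp1 in ependymal cells, the ciliated lining of the central canal, had 0, 53 and 43 UMIs in 76, 173 and 275 cells under Vehicle and 3, 7 and 2 under PLX5622. The levels were 0 CPM (up to 9.35), 77.2 [57.8, 101] and 55.9 [40.4, 75.3] under Vehicle, and 8.10, 12.5 and 5.06 CPM under PLX5622. The injured Vehicle libraries were the high ones. With the count of 0 in sham set to a floor of 3, Nrp1 was 10.1-fold higher at 7 dpi, beside 5.18% of genes called higher. At 28 dpi it was 7.35-fold higher, beside 4.8%. These folds depend on the floor and are not lower limits. PLX5622 was lower than Vehicle by -2.62 [-4.00, -1.48] at 7 dpi, beside 3.55% of genes called lower, and by -3.47 [-6.56, -1.53] at 28 dpi, beside 4.06%. The myeloid list made up 0.0124%, 0.731% and 0.789% of ependymal UMIs under Vehicle and 0.0386%, 0.198% and 0.107% under PLX5622. In the 73, 72 and 130 Vehicle ependymal cells with fewer than 3 myeloid UMIs, Nrp1 had 0, 1 and 0 UMIs, so the difference was seen only with the other cells. Without cells marked as doublets by Scrublet, the 7 dpi ratio between diets was 0.29.

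Among the less captured clusters, leptomeningeal cells, which form the inner meninges, kept both Pgf and Nrp1 in every library. Pgf was at 71.0 CPM [45.5, 106], 187 [68.6, 407] and 135 [88.5, 198] under Vehicle and 103 [72.0, 142], 137 [72.7, 234] and 170.0 [68.4, 350.3] under PLX5622, in 8 to 64 cells, and these intervals overlapped. Nrp1 was at 331, 374 and 495 CPM and at 440.1, 305 and 243 CPM. In ependymal cells Vegfb was at 172 CPM [134, 219], 135 [109, 166] and 130.0 [106, 158] under Vehicle and 146, 134 and 129 CPM under PLX5622, with overlapping intervals.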

How the data were processed

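Cells of 6 single-cell libraries were analysed, 1 per condition, and 14 bulk samples were not analysed here. The deposited values are UMI counts per gene and cell. The authors aligned reads to the mouse genome and counted UMIs with Cell Ranger, filtered and integrated cells with Seurat and clustered them. The submitters' processing notes name Cell Ranger and Seurat. They also name STAR 2.4.0 and HTSeq 0.6.1, which the paper gives for the bulk samples. Of the barcodes given in the labels, the table holds 1795 of 1916 for sham Vehicle, 492 of 594 for sham PLX5622, 504 of 533 for 7 dpi PLX5622 and 9846 of 9848 for 28 dpi Vehicle, and all of the others.

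Here UMIs were summed per cluster number and library and divided by the sum of all genes, without imputation. Clusters were named from 92 markers of 15 types, of which 88 were detected. The members, markers, gene lists and comparisons were chosen with earlier results of these data known. Named genes are the 9 members, examples of the lists with the largest ratios past the fold or the highest level, the markers, and the genes closest to each member. Of 39 genes on the other lists 38 were in the table. Intervals (95%) are exact Poisson for levels, conditional binomial for ratios and Clopper-Pearson for shares, and cover counting error only. A count of 0 was set to a floor of 3 counts. Because 1 library stands for each condition, no test was made.

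Doublets were kept, as in the authors' clusters. Scrublet, run at an expected rate per library, marked 1256 cells (5.98%), 11.7% of endothelial cells, 8.32% of astrocytes and 6.74% of MDMs, and its rate follows that setting. Libraries shared 44 barcodes, carried by 88 of 21016 cells, of which 3 were endothelial cells, 5 astrocytes and 29 MDMs. The alternatives tried were scaling by TMM (edgeR) or by size factors (DESeq2), totals without ribosomal protein and mitochondrial genes, thinning each cell to 1000 UMIs, leaving out cells under 500 genes or with doublet calls, cells with fewer than 3 myeloid UMIs, equal weight per cell and other minimums of UMIs. The steps were tested on simulated counts. Promoter windows came from RefSeq, gene positions from the GENCODE annotation. Scaling factors came from DESeq2 1.42.0 and edgeR 4.0.16 in R 4.3.3. All else was run in Python 3.11.15 with scipy 1.17.1 (intervals), pandas 2.3.3 and numpy 2.4.6 (tables), and scanpy 1.11.5 for Scrublet.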

Additional observations from a re-analysis of the deposited data

How the results depend on the processing

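No paired analysis was possible because each condition was 1 library, and for the same reason no replicate could be left out. Of 888 alternative values of 116 results, 726 stayed within the counting interval (for counts and shares of genes, within 1.5 times), 160 moved more, and 2 called values changed sign, Nrp1 in ependymal cells at 7 dpi between diets without doublets (0.29) and Flt1 in microglia at 28 dpi between diets with each cell weighted alike (0.071). A further 62 of the 801 log2 ratios, none of them a called value, also changed sign, some within their interval. Totals per UMI of astrocyte or endothelial markers, and MDMs without endothelial marker UMIs, were chosen after seeing the data.

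The count of members called in endothelial cells, 1 at 7 dpi over sham under Vehicle, was 0 with thinning, without doublets and in cells with few myeloid UMIs, and 2 with cells weighted alike. At 28 dpi it was 2 with thinning and with cells weighted alike, and 0 without doublets and with few myeloid UMIs. Under PLX5622, the count of 0 at 7 dpi became 1 with TMM, with DESeq2's factors, without doublets, without ribosomal and mitochondrial genes and per marker UMI, and the count of 1 at 28 dpi became 0 with DESeq2's factors, without doublets, with few myeloid UMIs, without ribosomal and mitochondrial genes and per marker UMI. Between diets, the 1 at 7 dpi became 0 with thinning, without doublets and with few myeloid UMIs, and 2 with cells weighted alike and per marker UMI, and the 0 at 28 dpi became 2 with thinning. The cause of these changes was not tested.

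The ratio of Vegfa in astrocytes at 28 dpi over sham under Vehicle was -0.98 with few myeloid UMIs, -1.47 with cells weighted alike and -1.32 per marker UMI. At 7 dpi over sham under PLX5622 it was -0.68 with thinning. Between diets it was 0.21 in sham with cells weighted alike, and at 28 dpi 1.01 with TMM, 0.58 with few myeloid UMIs and 0.51 per marker UMI. A further 21 alternatives are not given, because the counts were at or under the floor of 3 or because a library held no UMI of the gene. Depth limits Angpt2, Pgf, sham Vegfb in endothelial cells and Vegfa in injured Vehicle astrocytes, which rest on a few UMIs each.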
